A study of Mus musculus with 14 samples.

Results

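The genes of the alarmin receptors were followed in mast cells sorted from mouse ear skin. Alarmins are cytokines that damaged or irritated barrier tissue releases to alert immune cells. The 7 receptor genes were chosen by name from the 55487 genes of the count table. They were Il1rl1 and Il1rap (the chains of the interleukin 33 receptor), Crlf2 and Il7r (the thymic stromal lymphopoietin receptor), Il18r1 and Il18rap (the interleukin 18 receptor) and Il17rb (the chain that binds interleukin 25). All 7 were among the 21014 genes left after the filter on low counts. MC903 is calcipotriol, a vitamin D analogue that gives a dermatitis resembling atopic dermatitis when it is applied to mouse skin. Resident mast cells of untreated mice made up 5 libraries (numbers 1 to 5), and resident mast cells of mice given MC903 another 5 (6 to 10). The remaining 4 libraries (11, 13, 14 and 15) also came from mice given MC903, and their cells are labelled bone marrow mast cells. Each library held at most 100 cells, and all were taken from ears. For the last group the protocol names integrin β7+ cells sorted from ear skin, not cells taken out of bone marrow. It is called the bone marrow group here after its label. Strain, age, dose, length of treatment, the animal behind each library and any vehicle on untreated ears are not given in the sources used here. P-values therefore measure the spread between libraries, which may in part be technical.

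In mast cells, interleukin 33 binds the chain made from Il1rl1, called ST2, which then recruits the accessory chain made from Il1rap. The accessory chain also serves the interleukin 1 and interleukin 36 receptors. The paired tails bind MyD88 and signal through IRAK kinases and TRAF6 to NF-κB and p38, and the interleukin 18 receptor uses the same route. Thymic stromal lymphopoietin binds the Crlf2 chain together with the interleukin 7 receptor chain from Il7r and signals through JAK kinases and STAT5. Interleukin 25 binds a pair of Il17rb and Il17ra, which signals through the adaptor Traf3ip2. MC903 is known to raise thymic stromal lymphopoietin in keratinocytes, and mast cells are known for a high constitutive level of ST2.

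Il1rl1 lies at chr1:40429570-40465415 on the plus strand of mm10, and Il18r1 (chr1:40465552-40500854) and Il18rap (chr1:40515362-40551705) follow it on the same strand. Il1rap lies at chr16:26581704-26730117 on the plus strand. Crlf2 (chr5:109554709-109558993), Il7r (chr15:9505788-9530176) and Il17rb (chr14:29996135-30008896) are on the minus strand. All are annotated as protein coding.

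The 250 bases before the start site are shown for Il1rl1, the receptor gene with the highest level, for Il18rap, the receptor gene with a called difference, and for Il1rap, which was lower in every MC903 library than in every untreated one. They are RefSeq sequences on GRCm38.p6, read 5′ to 3′ on the gene's strand. For Il1rl1 the RefSeq table holds windows for an upstream start and for one inside the gene, and both are shown. Capitals mark the GATA letters AGATAA or TGATAA, in either strand's reading.
Il1rl1, upstream start, chr1:40429320-40429569: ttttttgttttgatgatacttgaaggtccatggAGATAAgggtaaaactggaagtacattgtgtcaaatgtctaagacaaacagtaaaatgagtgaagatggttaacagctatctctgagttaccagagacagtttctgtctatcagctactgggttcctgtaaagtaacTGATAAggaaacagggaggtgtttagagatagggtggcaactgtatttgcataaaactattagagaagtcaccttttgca
Il1rl1, inner start, chr1:40439379-40439628: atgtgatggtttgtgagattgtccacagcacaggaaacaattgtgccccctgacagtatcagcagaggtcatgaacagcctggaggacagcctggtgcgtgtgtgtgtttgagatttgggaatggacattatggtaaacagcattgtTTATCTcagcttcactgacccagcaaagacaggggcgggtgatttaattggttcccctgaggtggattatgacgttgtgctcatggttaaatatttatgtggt
Il18rap, chr1:40515112-40515361: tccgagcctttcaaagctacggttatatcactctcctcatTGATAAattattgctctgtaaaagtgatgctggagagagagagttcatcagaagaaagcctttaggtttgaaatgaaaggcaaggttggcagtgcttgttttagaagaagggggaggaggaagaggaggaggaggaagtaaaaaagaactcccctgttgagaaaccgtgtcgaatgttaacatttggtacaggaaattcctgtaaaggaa
Il1rap, chr16:26581455-26581704: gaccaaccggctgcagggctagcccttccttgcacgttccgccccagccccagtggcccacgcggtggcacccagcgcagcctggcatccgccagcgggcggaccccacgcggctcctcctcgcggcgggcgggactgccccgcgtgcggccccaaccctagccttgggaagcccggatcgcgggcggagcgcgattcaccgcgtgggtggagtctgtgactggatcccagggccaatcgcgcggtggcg

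Windows of 300 bases, from 250 before to 50 after a start, were found for 7 of the 7 genes, 10 windows in all. Both strands were searched for the GATA letters AGATAA and their variant TGATAA, the STAT letters TTCNNNGAA, the E-box letters CACGTG and CATGTG, and TATAAA, and none of the matches overlapped. The upstream Il1rl1 window held AGATAA from base -217 and TGATAA from base -80 relative to the start. The inner Il1rl1 window held AGATAA on the opposite strand from base -103, written TTATCT above, and the Il18rap window held TGATAA from base -210. Of 32851 windows of all genes, 11.2% held AGATAA and 9.05% held TGATAA, so these letters are common. The Il1rap window held none of the 6 motifs. It was rich in G and C (72%, with 33 CG pairs), against 38.7% and 1 CG pair in the upstream Il1rl1 window and 42.3% in the Il18rap window. The STAT letters, present in 8.3% of all windows, were found once in the Il7r window and at 2 places in a window of Il18r1. A match describes the letters and does not show that a factor binds there.

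Depth was 17706764 to 27068993 counts per library for untreated resident, 13068078 to 25287381 for MC903 resident and 19978811 to 31781926 for bone marrow libraries. Genes with a count numbered 21874 to 25244, 22632 to 35246 and 16025 to 32814 in the same order. Mitochondrial genes took 1.22% to 1.7% of counts in untreated and 2.14% to 4.24% in MC903 libraries of both kinds, so these did not overlap. All 9 mast cell markers, among them Kit and Fcer1a, were at 1 CPM or more in every library. Summed markers of macrophages and dendritic cells came to 4970 CPM in bone marrow library 15, with the complement gene C1qb at 2239 CPM and the growth factor receptor gene Csf1r at 1094 CPM. In the other 13 libraries that sum lay between 0.474 and 26.5 CPM. The sum of 4 basophil markers overlapped between the groups (534 to 822 CPM in untreated, 492 to 754 in MC903 resident and 291 to 1550 in bone marrow libraries). Of these, the protease gene Mcpt8 stood at 979 CPM in bone marrow library 11 and at no more than 205.6 CPM elsewhere. Cd200r3, another of them, was at 527 CPM in library 11, inside its untreated range of 443 to 711.5 CPM. Summed endothelial markers ran from 1.47 to 6.67, 6.11 to 19.4 and 8.36 to 40.1 CPM in the 3 groups. Sums stayed at or under 5.24 CPM for eosinophil, 11.9 CPM for keratinocyte and 25.9 CPM for fibroblast markers, and the neutrophil sum reached 74.5 CPM in bone marrow library 15 and at most 2.4 CPM in resident libraries. Summed T cell and innate lymphoid markers without the costimulator gene Icos ranged from 0.616 to 6.25 CPM in untreated resident, from 6.07 to 24.9 in MC903 resident and from 9.25 to 46.4 in bone marrow libraries. Icos itself spanned 5.44 to 38.0 CPM, 12.8 to 92.3 CPM and 54.3 to 146 CPM in the same order, and the T cell receptor gene Cd3e was at 0 in every untreated library, at up to 3.73 CPM in MC903 resident and up to 2.815 CPM in bone marrow libraries. A lower level in a pool can reflect fewer expressing cells or less RNA per cell, and these cannot be told apart.

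Levels are in CPM (counts scaled to a common library total with TMM factors). Receptor genes are ranked against each other in CPM per kb, which divides by the gene's exon length. Il1rl1 was the most abundant receptor gene in all 3 groups, at 95.01 ± 20.6 (SD, n = 5) CPM per kb in untreated resident, 165.7 ± 48.6 (SD, n = 5) in MC903 resident and 100.3 ± 25.8 (SD, n = 4) in bone marrow libraries. By its mean over the libraries it ranked 388 of the 21014 genes per kb, above 98.2% of them. Crlf2 came next in each group, with 20.6, 30.1 and 36.9 CPM per kb in the same order of groups, followed by Il7r, with 15.9, 10.2 and 22.

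Crlf2 and Il7r overlapped per kb in untreated libraries (12.1 to 25.8 and 10.6 to 22.7) but not in MC903 resident (19.5 to 37.7 and 6.83 to 13.7) or bone marrow libraries (35.3 to 38.3 and 12.9 to 33.8). Il1rap came after Il7r in both resident groups, at 8.40 and 2.18 CPM per kb. In the bone marrow group Il18rap, at 2.79 CPM per kb, stood above Il1rap at 1.29, though their libraries overlapped (0.948 to 4.79 and 0 to 1.88). Il18r1 and Il17rb were at most 0.554 CPM per kb in every group mean. The plot of levels by library shows these layers, with Il1rl1 above all others.

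**Figure D1:**
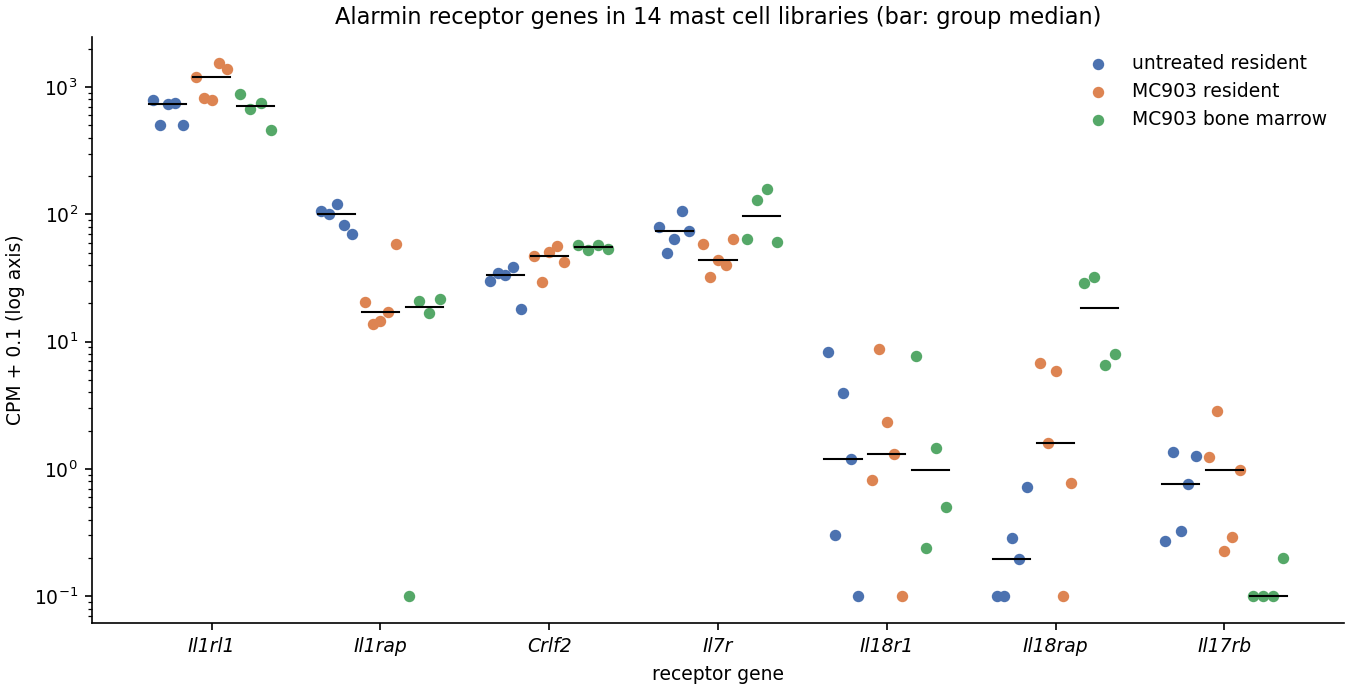
Level of each receptor gene in each of the 14 libraries, as CPM plus 0.1 on a log axis, by group; bars are group medians and points at the bottom edge are libraries at 0. Il1rap is lower in both MC903 groups than in untreated cells, and Il18rap is highest in the bone marrow group.

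Each comparison below was tested with edgeR's quasi-likelihood test over the 21014 genes, and a gene is called where its Benjamini-Hochberg adjusted p is under 0.05. Of the 21 tests on receptor genes, 1 was called, that of Il18rap between bone marrow and untreated resident cells. In MC903 resident against untreated resident cells, 0 of the 7 were called, beside 2.25% of all genes (0.571% higher and 1.68% lower). At an unadjusted p under 0.05 there were 5, beside 12.6% of all genes, and DESeq2 and limma's voom each called 2, beside 5.6% and 6.46% of the genes to which they gave an adjusted p. For bone marrow against MC903 resident cells, edgeR called 0 of 7 beside 2.27% of all genes (1.32% higher and 0.952% lower). There, 4 had an unadjusted p under 0.05 beside 17.7% of all genes, and DESeq2 called 3 and voom 2, beside 8.8% and 9.6%. In bone marrow against untreated resident cells 1 of 7 was called, beside 6.87% of all genes (3.49% higher and 3.37% lower), and 4 had an unadjusted p under 0.05, beside 21.3%. DESeq2 called 4 there and voom 3, beside 16.1% and 10.4%. The comparisons share groups, so their results are not independent of each other.

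Groups did not overlap in CPM for 2 of 7 receptor genes (Il1rl1 higher, Il1rap lower) in MC903 resident against untreated cells, beside 5.33% of all genes (2.13% higher and 3.2% lower). In bone marrow against MC903 resident cells Il17rb was the single such gene of 7, lower, beside 8.29% in either direction (4% higher and 4.29% lower), but only the scaling kept its groups apart. Bone marrow library 15 and MC903 resident library 8 each held 2 reads of it (0.1004 and 0.1274 CPM), under the limit of 3 counts. In bone marrow against untreated cells there were 4 of 7, with Il18rap and Crlf2 higher and Il1rap and Il17rb lower, beside 10.4% (5.11% higher and 5.27% lower). For Il17rb this too rests on libraries at the limit, with 2 reads in bone marrow library 15 and 3 in untreated library 1. The plot of fold changes sets all 21 values side by side.

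**Figure D2:**
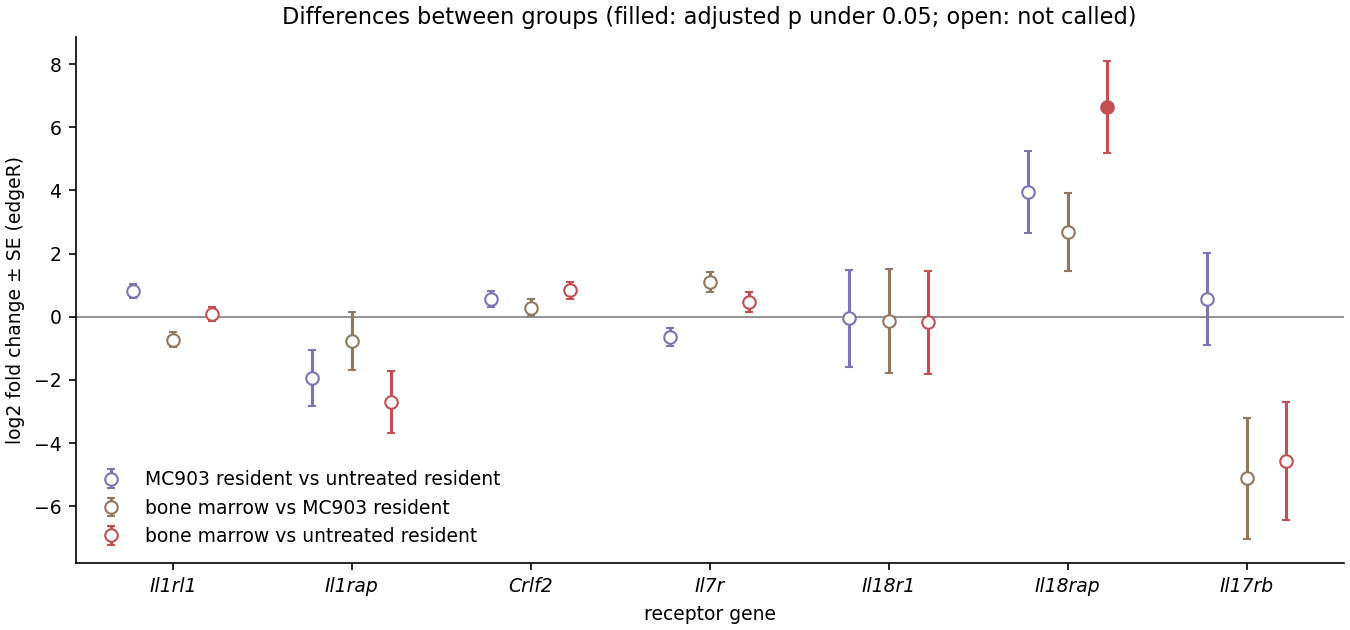
Fitted log2 fold change with its standard error for each receptor gene in the 3 comparisons; filled points have an adjusted p under 0.05. The single filled point is Il18rap in bone marrow against untreated resident cells, and the longest error bars belong to Il17rb, Il18rap and Il18r1, the genes with the fewest counts.

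Il1rl1, the gene of the ligand-binding chain ST2, was high in every library and highest in resident cells after MC903. In untreated resident cells it stood at 785, 502, 741, 748 and 499 CPM in libraries 1 to 5. In MC903 resident cells it stood at 1188, 812, 789.5, 1532 and 1391 CPM in libraries 6 to 10, and in the bone marrow group at 887, 667, 752 and 462 CPM in libraries 11, 13, 14 and 15. The resident groups did not overlap, but untreated library 1 (785.3) and MC903 library 8 (789.5) nearly met, and bone marrow cells spanned the untreated range.

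The means of Il1rl1 were 655 ± 142 (SD, n = 5), 1142 ± 335 (SD, n = 5) and 692 ± 178 (SD, n = 4) CPM. The difference of MC903 resident from untreated cells was 0.81 on the log2 scale (SE 0.217, 95% interval 0.36 to 1.26), with an edgeR adjusted p of 0.0559, so it was not called. The median over all genes in that comparison was 0.24. With size factors computed as in DESeq2, Il1rl1 differed by 0.92 and the median was 0.40. The gap was narrower with no filter on low counts (0.78 and 0.73) and with voom (0.70 and 0.38), and wider with the filter at 10 CPM (0.97 and 0.03) and in a fit of only these groups (0.83 and 0.10). It was called when untreated library 1 (adjusted p = 0.0244) or 4 (0.0317), or MC903 resident library 7 (0.0302) or 8 (0.0362), was left out, and in all 7 other alternatives (adjusted p 0.00037 to 0.0289).

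Bone marrow cells differed from MC903 resident cells by -0.73 for Il1rl1 (SE 0.233, 95% interval -1.21 to -0.25, edgeR adjusted p = 0.111), where the median of all genes was -0.28. That was called in 5 of 7 other alternatives and in 0 of 9 fits without a library. From untreated cells the bone marrow group differed by 0.08 (SE 0.229, 95% interval -0.40 to 0.56, edgeR adjusted p = 0.90). That interval leaves room for a difference in either direction.

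Il1rap, the shared signalling chain, was lower in both MC903 groups than in untreated cells. It stood at 105, 99.6, 120.0, 82.3 and 69.8 CPM in untreated libraries 1 to 5. In MC903 resident libraries 6 to 10 it stood at 20.4, 13.6, 14.3, 16.9 and 58.8 CPM, and in bone marrow libraries 11, 13, 14 and 15 at 0, 20.6, 16.6 and 21.4 CPM. Every MC903 library was below every untreated one. Library 10 was the high one among MC903 resident cells, and library 11 had 0 reads, below the limit of 3 counts, while it held Il1rl1 at 887 CPM. The mitochondrial share given above parts the same libraries, and its part in this difference was not tested.

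The Il1rap means were 95.4 ± 19.7 (SD, n = 5), 24.8 ± 19.2 (SD, n = 5) and 14.7 ± 9.99 (SD, n = 4) CPM. MC903 resident cells differed from untreated cells by -1.94 (SE 0.878, edgeR adjusted p = 0.379), with a median of 0.24 over all genes. Without MC903 resident library 10 the difference was -2.53 (edgeR adjusted p = 0.231). The call was not made in any of 10 fits without a library, but was made with voom (-2.36, adjusted p = 0.0136) and in a fit of only these groups (-1.92, adjusted p = 0.00569). Bone marrow cells differed from untreated cells by -2.70 (SE 0.986, edgeR adjusted p = 0.132). Without library 11 this was -2.29, with an adjusted p of 0.00181, and DESeq2 (-2.70, adjusted p = 0.0329) and voom (-5.33, adjusted p = 0.0117) also called it. Bone marrow and MC903 resident cells overlapped (-0.76, 95% interval -2.75 to 1.23, edgeR adjusted p = 0.724). That difference was -0.16 without MC903 resident library 10 (edgeR adjusted p = 0.951), and voom gave -2.97 (adjusted p = 0.147).

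The ratio of the chains within a library needs no scaling between libraries. Il1rl1 exceeded Il1rap per kb by 12.3, 8.31, 10.2, 14.97 and 11.8 times in untreated libraries 1 to 5. In MC903 resident libraries 6 to 10 the ratio was 96.0, 98.4, 90.5, 149 and 39.0, and in bone marrow libraries 13, 14 and 15 it was 53.2, 74.6 and 35.5. In library 11, with 0 reads of Il1rap, it was at least 11600, taking 3 counts as the limit. No MC903 library reached down to the untreated range of 8.31 to 14.97. The ratio is a description without a test, and the plot of chain ratios shows it by library.

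**Figure D3:**
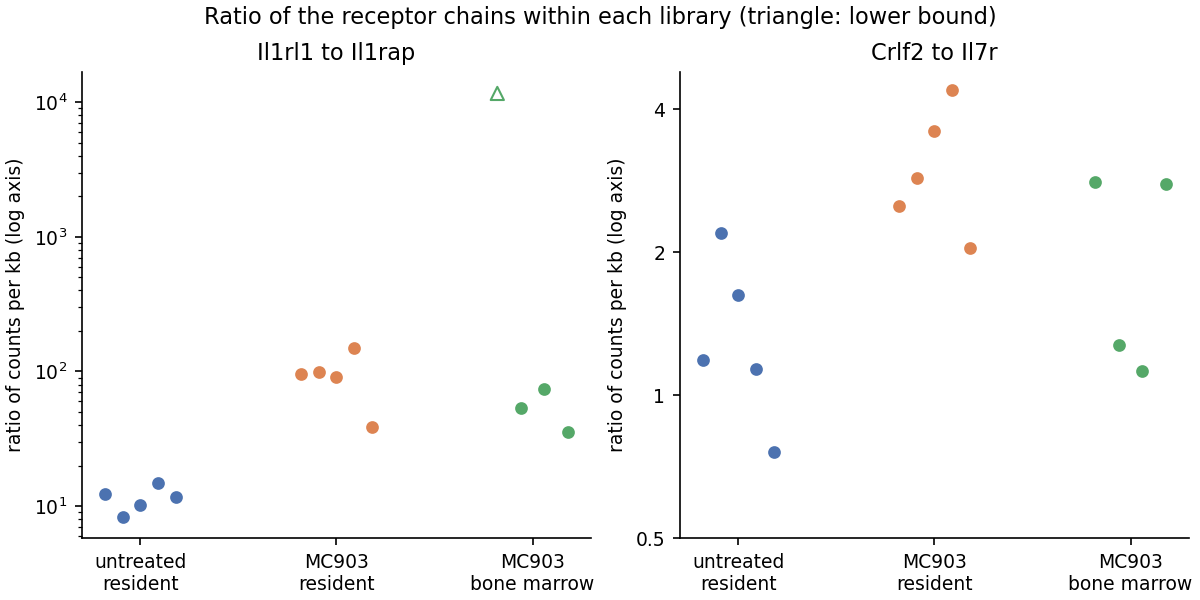
Ratio of counts per kb of Il1rl1 to Il1rap (left) and of Crlf2 to Il7r (right) in each library on log axes; the open triangle is a lower bound for bone marrow library 11, where Il1rap had 0 reads. The left ratio lies between 8.31 and 14.97 in untreated libraries and at 35.5 or above in all MC903 libraries.

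Further genes of the interleukin 33 and interleukin 1 system were followed. Of a list of 10 partner chains and relatives, 1 (Il17ra) was called lower in MC903 resident against untreated cells, beside 1.68% of all genes. In bone marrow cells 2 were called higher against MC903 resident (Il17ra and Il1r2) and 2 against untreated cells (Il1r2 and Sigirr), beside 1.32% and 3.49%. Il1r2, a decoy receptor that binds interleukin 1 without signalling, was named after its values were seen. It was at most 0.791 CPM in untreated and 2.10 CPM in MC903 resident libraries. In bone marrow libraries 11, 13 and 14 it stood at 41.9, 84.6 and 76.1 CPM, and in library 15, the one with the macrophage markers, at 0.402 CPM.

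Il1r2 rose in the bone marrow group against MC903 resident cells (5.09 on the log2 scale, SE 0.953, edgeR adjusted p = 0.00458) and against untreated cells (7.12, SE 1.05, edgeR adjusted p = 0.000155). Both calls were made in all 9 fits without a library, though voom gave an adjusted p of 0.0774 for the first. The groups overlapped through library 15 alone. Sigirr, which damps receptors of this family, was found in all libraries, at 9.62 to 28.3 CPM in untreated, 12.9 to 28.4 in MC903 resident and 17.7 to 72.2 in bone marrow libraries. It rose in bone marrow against untreated cells (1.55, SE 0.410, edgeR adjusted p = 0.0234). That call was lost without untreated library 2 (0.0601) or 4 (0.0564), or bone marrow library 13 (0.0779) or 14 (0.0815), and in a fit of only these groups (0.0528). Without library 15, its lowest bone marrow library, the difference was 1.84 (0.00316). Against MC903 resident cells Sigirr differed by 1.14 (edgeR adjusted p = 0.148), which was called without library 15 (1.44, 0.0377) and with voom (1.28, 0.0483).

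Il1r2, Il1r1, Il1rl2, Il1rl1, Il18r1 and Il18rap lie in this order on chromosome 1, all on the plus strand. Il1r1, the interleukin 1 receptor chain, had group means from 3.16 to 5.92 CPM, and Il1rl2, the interleukin 36 receptor chain, from 1.68 to 2.33 CPM. Neither was called in any comparison. Per kb, Il1rl1 was at least 67.0 in each library, while Il18r1, which starts just after it ends, was at most 1.79. The levels along this stretch therefore differed from gene to gene, as the plot of the neighbouring genes shows.

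**Figure D4:**
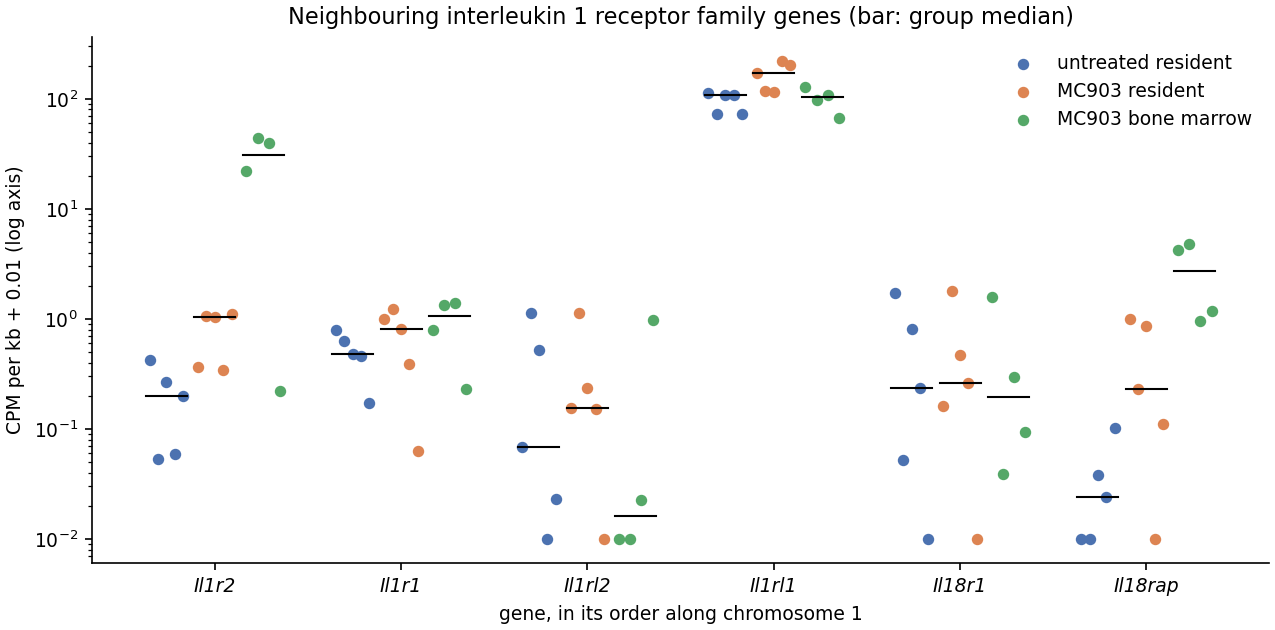
CPM per kb plus 0.01 on a log axis for the 6 neighbouring receptor genes of chromosome 1 in each library, with group medians as bars; points at the bottom edge are at 0. Il1rl1 stands above its neighbours in every library, and Il1r2 and Il18rap have their highest medians in the bone marrow group.

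Il18rap, the signalling chain of the interleukin 18 receptor, rose from near 0 in untreated resident cells to a clear level in bone marrow cells. Untreated libraries 1 to 5 held 0, 0, 5, 2 and 14 reads of it, at 0, 0, 0.187, 0.0948 and 0.6246 CPM. MC903 resident libraries 6 to 10 stood at 6.63, 1.49, 5.74, 0 and 0.673 CPM, and bone marrow libraries 11, 13, 14 and 15 at 28.6, 32.3, 6.40 and 7.88 CPM. Every bone marrow library was above every untreated one, with libraries 11 and 13 the highest, and MC903 resident cells spanned from 0 to the lower edge of the bone marrow range.

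The Il18rap means were 0.181 ± 0.2597 (SD, n = 5), 2.91 ± 3.05 (SD, n = 5) and 18.8 ± 13.6 (SD, n = 4) CPM. Bone marrow cells were higher than untreated cells by 6.64 on the log2 scale (SE 1.47, 95% interval 3.58 to 9.70, edgeR adjusted p = 0.00662). The call was made in all 9 fits without a library (adjusted p 0.00376 to 0.0225) and in all 6 other alternatives that gave a p. Voom gave the largest difference of these alternatives, 7.75 (adjusted p = 0.00119). Without library 15 the difference was 6.91 and without library 11 it was 6.34. Untreated library 5 held 14 of the 21 untreated reads, and without it the difference was 7.90 (adjusted p = 0.00522). Of the markers given above, the T cell and innate lymphoid sum and Icos were also above the untreated range in every bone marrow library. In libraries 11 and 13, where Il18rap was highest, single markers of that list differed. Cd3e was at 0 in both, Il2ra at 15.5 and 0 CPM, and Thy1 at 3.52 and 0.417 CPM. Untreated libraries held at most 0.327 CPM of Il2ra and 0.1785 CPM of Thy1. The basophil gene Mcpt8 stood at 979, 205.6, 83.5 and 46.2 CPM in libraries 11, 13, 14 and 15, against at most 37.3 CPM in untreated and 57.1 CPM in MC903 resident libraries. Cd200r3 did not follow it, at 527, 532.5, 582 and 222 CPM, and the basophil sum overlapped. The endothelial sum was 36.0, 40.1, 8.36 and 13.5 CPM in these libraries, above all untreated ones and highest in 11 and 13. Nearly all of it there was Pecam1 (35.9 and 39.9 CPM), while the endothelial gene Cdh5 was at most 0.0838 CPM in the group. The part of these markers in the result was not tested.

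MC903 resident cells differed from untreated cells in Il18rap by 3.96 (SE 1.29, edgeR adjusted p = 0.132), which was called in 2 of 6 other alternatives and was 5.22 without untreated library 5 (adjusted p = 0.0721). Bone marrow cells differed from MC903 resident cells by 2.68 (SE 1.23, edgeR adjusted p = 0.262), and voom gave 3.45 (adjusted p = 0.0541). The partner Il18r1, the ligand-binding chain, had group means of 2.67, 2.56 and 2.36 CPM in the same order. It was at 8.19, 0.205, 3.86, 1.09 and 0 CPM in untreated, at 0.725, 8.64, 2.23, 1.21 and 0 CPM in MC903 resident and at 7.54, 0.139, 1.37 and 0.402 CPM in bone marrow libraries.

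Untreated libraries 1 and 3, MC903 resident library 7 and bone marrow library 11 carried most of the Il18r1 level of their groups. All groups overlapped for Il18r1. Its log2 differences were -0.05 (95% interval -3.25 to 3.16) for MC903 resident against untreated, -0.13 for bone marrow against MC903 resident and -0.18 for bone marrow against untreated cells, with edgeR adjusted p of 0.995, 0.979 and 0.971. The sign of the first changed with the scaling, to 0.17 with size factors as in DESeq2. In bone marrow libraries Il18r1 was 0.370, 0.00678, 0.303 and 0.0757 times Il18rap per kb, below it in each. In untreated library 3, the only untreated one with more than 3 reads of both, it was 26.4 times Il18rap.

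Crlf2, the chain that is specific to thymic stromal lymphopoietin, was lowest in untreated cells and highest and most even in bone marrow cells. It stood at 29.8, 34.6, 33.1, 38.5 and 18.0 CPM in untreated libraries 1 to 5 and at 46.7, 29.2, 50.7, 56.4 and 41.9 CPM in MC903 resident libraries 6 to 10. In bone marrow libraries 11, 13, 14 and 15 it stood at 57.2, 52.8, 56.9 and 53.6 CPM. Bone marrow libraries were all above the untreated ones, and the other pairs of groups overlapped.

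The Crlf2 means were 30.8 ± 7.81 (SD, n = 5), 45.0 ± 10.3 (SD, n = 5) and 55.1 ± 2.26 (SD, n = 4) CPM. Bone marrow cells differed from untreated cells by 0.84 (SE 0.272, edgeR adjusted p = 0.0693), which was not called, nor in any of 9 fits without a library. It was called in 3 of 7 other alternatives, with an adjusted p of 0.0127 in DESeq2. MC903 resident cells differed from untreated cells by 0.55 (SE 0.258, edgeR adjusted p = 0.372), and bone marrow from MC903 resident cells by 0.29 (95% interval -0.28 to 0.86, edgeR adjusted p = 0.627).

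Il7r, the chain shared with interleukin 7, was lowest in MC903 resident cells and highest in bone marrow libraries 13 and 14. Untreated libraries 1 to 5 held 78.7, 49.2, 63.6, 106 and 74.15 CPM, and MC903 resident libraries 6 to 10 held 58.3, 31.8, 44.0, 40.1 and 64.1 CPM. Bone marrow libraries 11, 13, 14 and 15 held 63.6, 129, 158 and 60.05 CPM. All 3 groups overlapped, and the bone marrow libraries fell into a high and a low pair.

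Bone marrow cells differed from MC903 resident cells in Il7r by 1.10 (SE 0.308, 95% interval 0.46 to 1.74, edgeR adjusted p = 0.0684), and the median of all genes was -0.28. It was called without bone marrow library 11 (1.24, adjusted p = 0.0455) or library 15 (1.29, adjusted p = 0.0191), the low pair, and in 3 of 7 other alternatives. MC903 resident cells differed from untreated cells by -0.63 (SE 0.292, edgeR adjusted p = 0.359) and bone marrow from untreated cells by 0.47 (95% interval -0.18 to 1.11, edgeR adjusted p = 0.424). Il7r also marks lymphoid cells. The lymphoid sum without Icos and Icos itself reached their highest values in bone marrow libraries. So did Il2ra and Thy1, at 15.5 and 3.52 CPM in library 11, which is in the low pair for Il7r. Cd3e was highest in an MC903 resident library, and the part of these markers here was not tested.

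Crlf2 to Il7r per kb was 1.18, 2.19, 1.62, 1.13 and 0.759 in untreated libraries 1 to 5. It was 2.50, 2.86, 3.60, 4.38 and 2.04 in MC903 resident libraries 6 to 10, and 2.81, 1.28, 1.13 and 2.79 in bone marrow libraries 11, 13, 14 and 15. The resident groups overlapped only through untreated library 2 and MC903 library 10. Il2rg, the common chain that pairs with Il7r for interleukin 7, was abundant, at 419 ± 84.8 (SD, n = 5), 308 ± 52.4 (SD, n = 5) and 312 ± 68.0 (SD, n = 4) CPM, and was not called in any comparison.

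Il17rb was near the limit of detection. Untreated libraries 1 to 5 held 3, 31, 6, 14 and 26 reads of it, MC903 resident libraries 6 to 10 held 22, 48, 2, 4 and 21, and bone marrow libraries 11, 13, 14 and 15 held 0, 0, 0 and 2. The bone marrow group was thus under 3 reads throughout, as was MC903 resident library 8. Taking 3 counts per library as the limit, its mean was at least 8.01-fold below that of MC903 resident cells (edgeR adjusted p = 0.166). Against the mean of untreated cells it was at least 5.49-fold lower (edgeR adjusted p = 0.154). These bounds compare means and leave out the spread between libraries. The 95% intervals of the fit on the log2 scale were -9.11 to -1.13 and -8.45 to -0.69. MC903 resident library 7 held 48 of the 97 reads of its group, and without it the first bound fell to 4.61-fold. Without untreated library 2 the other was 4.36-fold. Neither was called by edgeR. DESeq2 called both, with adjusted p of 0.0169 and 0.0289, and so did voom (0.0342 and 0.0476).

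The partner Il17ra, which pairs with several chains of the interleukin 17 receptor family, was far more abundant. Per kb, Il17rb was at most 0.0864 times Il17ra in libraries with more than 3 counts of both. In CPM, Il17ra was as follows. It stood at 237, 130.4, 136, 172 and 100.3 CPM in untreated, 109, 75.05, 62.2, 62.9 and 81.5 CPM in MC903 resident and 196, 198, 147 and 147 CPM in bone marrow libraries. MC903 resident library 6 was the only one of its group to reach the untreated range, and no bone marrow library overlapped the MC903 resident ones.

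Il17ra fell in MC903 resident against untreated cells (-0.98, SE 0.232, edgeR adjusted p = 0.0232). The call was lost without untreated library 1 (0.154) or 4 (0.107), or MC903 resident library 7 (0.0727), 8 (0.0836) or 9 (0.116). It was also lost with both other scalings, at -0.85 (0.0570) with size factors as in DESeq2 and -0.79 (0.0760) with TMM from genes of at least 10 CPM. Against MC903 resident cells it rose in the bone marrow group (1.13, SE 0.243, edgeR adjusted p = 0.0139), a call lost without MC903 resident library 9 (0.0693) or bone marrow library 13 (0.0529). Between bone marrow and untreated cells it was not called (0.15, edgeR adjusted p = 0.797).

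The ligands were near absent from the sorted cells. Il33, Tslp, Il25, Il18, Il7 and Il17b were at most 4.57 CPM in any library, the highest being Il18 in bone marrow library 15. Of the 6, 3 passed the filter and 0 were called by edgeR in each comparison.

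The other pathway genes were taken from lists by role, and their counts stand beside the shares of all genes given above. Among 15 genes of the MyD88 route, Traf6, the ubiquitin ligase that links IRAK kinases to NF-κB, fell in MC903 resident against untreated cells (-1.52, SE 0.352, edgeR adjusted p = 0.0206), and the other 14 were not called, where 1.68% of all genes were lower and 0.571% higher. The list's median was -0.44, where that of all genes was 0.24. In bone marrow against untreated cells Traf3ip2, the adaptor of the interleukin 25 receptor, fell (-1.73, SE 0.464, edgeR adjusted p = 0.0253), and in bone marrow against MC903 resident cells edgeR called 0 of 15. The Traf6 call was lost without untreated library 1, 3 or 4, or MC903 resident library 6 or 9 (adjusted p up to 0.0952), and with TMM from genes of at least 10 CPM (0.0593). The Traf3ip2 call was lost without untreated library 4 or 5, or bone marrow library 13 or 15 (up to 0.0645).

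Among 14 genes of the JAK-STAT route, Cish, a feedback inhibitor that STAT5 induces, fell in MC903 resident against untreated cells (-1.10, SE 0.218, edgeR adjusted p = 0.0059). The other 13 were not called there. Bone marrow cells had 2 genes of 14 that rose against MC903 resident cells, beside 1.32% of all genes, the kinase gene Jak2 (1.39, edgeR adjusted p = 0.0200) and the inhibitor Socs1 (1.52, edgeR adjusted p = 0.0341). Against untreated cells 2 rose as well, beside 3.49%, Socs1 (1.44, edgeR adjusted p = 0.0212) and the kinase gene Pim1 (1.29, edgeR adjusted p = 0.0355). The Jak2 call was lost without MC903 resident library 6, 8 or 9 (adjusted p up to 0.0802) and in 3 of 7 other alternatives (up to 0.0739). The calls of Socs1 were lost in 6 of 9 and 4 of 9 fits without a library (up to 0.111), and that of Pim1 in 5 of 9 (up to 0.122). Socs1 against MC903 resident cells was called in 5 of 7 other alternatives (up to 0.0551), and Pim1 against untreated cells in 6 of 7 (up to 0.0955).

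Of 11 genes listed as inhibitors of receptor signalling, 4 fell and 0 rose in MC903 resident against untreated cells, beside 1.68% and 0.571% of all genes. The list also holds Nfkbiz, a gene of the IκB family, and its fall is not read here as loss of an inhibitor. The 4 genes are given next. They were Tollip (-1.34, SE 0.273, edgeR adjusted p = 0.00771), Tnfaip3, the deubiquitinase A20 (-1.23, edgeR adjusted p = 0.0091), Nfkbiz (-1.22, edgeR adjusted p = 0.00164) and Nfkbia (-0.92, edgeR adjusted p = 0.0350). The first 3 were called in all 10 fits without a library. Nfkbia, which holds NF-κB in the cytoplasm, was called in 2 of 10, with an adjusted p up to 0.157, and in 4 of 7 other alternatives (up to 0.0847). The list's median was -0.71, beside 0.24 over all genes.

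Against MC903 resident cells 2 of the 11 genes of the inhibitor list rose in the bone marrow group, beside 1.32% of all genes. They were Nfkbie (1.28, edgeR adjusted p = 0.0293) and Tnfaip3 (1.13, edgeR adjusted p = 0.0259). Each call was lost in 6 of 9 fits without a library and in a fit of only these groups (0.0590 and 0.0692). Against untreated cells Nfkbiz (-1.60, edgeR adjusted p = 9.5e-05) and Tollip (-1.25, edgeR adjusted p = 0.0103) fell, beside 3.37% of all genes, and both were called in 9 of 9. Nfkbiz and Tollip were thus called lower in both MC903 groups, which were set against the same untreated libraries.

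Output genes that these receptors can induce moved in both directions. Of 19 tested, 2 fell in MC903 resident against untreated cells, beside 1.68% of all genes, Tnf (-1.99, SE 0.207, edgeR adjusted p = 1.28e-05) and Hdc, the enzyme gene of histamine synthesis (-0.98, SE 0.179, edgeR adjusted p = 0.00333). Tnf had means of 499.6, 125 and 163 CPM in untreated, MC903 resident and bone marrow cells. In bone marrow against untreated cells Tnf (-1.62), Ccl2 (-0.76) and Ccl7 (-3.20) fell, beside 3.37% of all genes, with edgeR adjusted p of 6.7e-05, 0.0240 and 9.06e-07. Lif (3.75) and Vegfa (1.504) rose, beside 3.49%, with edgeR adjusted p of 0.000135 and 0.0217.

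Against MC903 resident cells Lif (2.25, edgeR adjusted p = 0.0165) and Vegfa (1.86, edgeR adjusted p = 0.0134) rose in bone marrow cells and the chemokine gene Ccl7 fell (-2.32, edgeR adjusted p = 5.87e-05), where 1.32% of all genes were higher and 0.952% lower. The calls of Tnf, Hdc and Ccl7, and that of Lif against untreated cells, were made in every fit without a library. That of Lif against MC903 resident cells was lost without bone marrow library 11 or 13 (adjusted p up to 0.066). Vegfa lost 4 of 9 against untreated cells (up to 0.0623) and 2 of 9 against MC903 resident cells (up to 0.0746), where it was also lost in a fit of only these groups (0.0794), and Ccl2 lost 4 of 9 (up to 0.0697). The cytokine genes Il13 (50.7, 38.5 and 30.1 CPM in the order untreated, MC903 resident, bone marrow) and Il6 (672, 268 and 528.5 CPM) were not called by edgeR. For Il6 the difference of MC903 resident from untreated cells was -1.32 (edgeR adjusted p = 0.0809), called in 2 of 7 other alternatives (down to 0.00553) and 2 of 10 fits without a library. Bone marrow cells differed from MC903 resident cells in Il6 by 0.97 (edgeR adjusted p = 0.199), called in 1 of 7 other alternatives (0.0244) and 1 of 9 fits without a library.

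**Figure D5:**
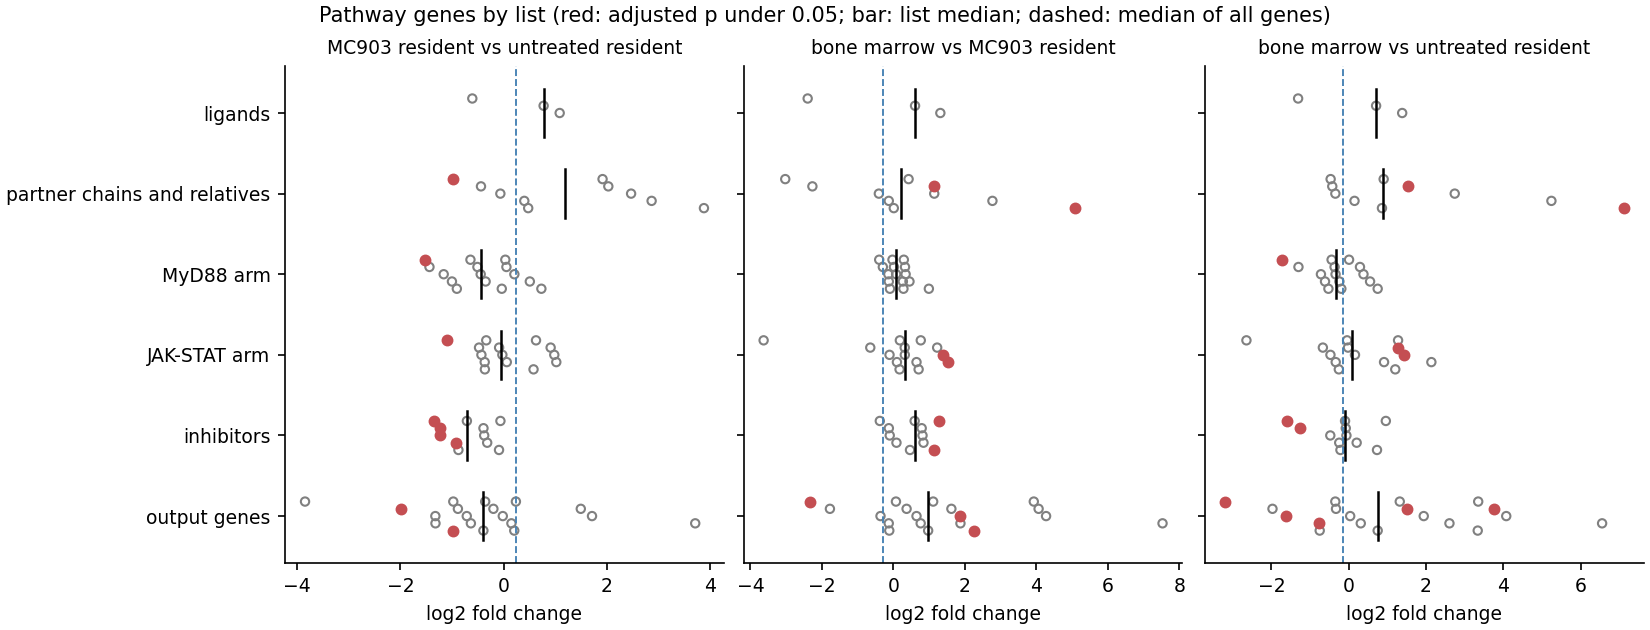
Log2 fold changes of the pathway genes tested, by list and comparison; filled red points have an adjusted p under 0.05, black bars are list medians and dashed lines are medians of all genes. In the left panel all filled points lie below 0, 4 of them in the inhibitor list.

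Genes whose levels ran most like a receptor gene were found by Pearson's r of log2 CPM over the 14 libraries, among genes that averaged 20 CPM or more. Depth and the difference between groups are shared by these points, so r with group means taken off is also given, and no test was made. For Il1rl1 the nearest was Gata1, a transcription factor gene of the mast cell lineage (r = 0.873, and 0.706 without group means), with 107, 186 and 111 CPM in untreated, MC903 resident and bone marrow cells. R3hdm1 (0.801, and 0.694 without) and Hdac6 (0.761, and 0.433) came next.

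For Il1rap the nearest was Egr2, an immediate early transcription factor gene (r = 0.935, and 0.898 without group means), at 665, 136 and 56.3 CPM. Ccdc141 (0.932, and 0.904) and Jmjd6 (0.903, and 0.877) followed. For Crlf2 they were Capns1 (0.933, and 0.852), Lars2 (0.922, and 0.865) and Alox5, the gene of 5-lipoxygenase (0.904, and 0.755), with Alox5 at 4.18, 22.1 and 107 CPM. For Il7r they were Papola (0.855, and 0.733), Ap1m1 (0.849, and 0.773) and Retreg1 (0.824, and 0.714). For Il18rap they were Kcnn4, a potassium channel gene (0.904, and 0.700 without group means), at 0.638, 4.68 and 213 CPM, then Ifitm3 (0.881, and 0.554) and Atp5o (0.870, and 0.489).

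Chains of the same receptor had low r over the 14 libraries. Il1rl1 and Il1rap, the chains of the interleukin 33 receptor, had r = -0.198, and -0.236 without group means. Crlf2 and Il7r had 0.138 and 0.126, and Il18r1 and Il18rap -0.013 and -0.045. Libraries at the limit of 3 counts enter the interleukin 33 and interleukin 18 receptor pairs. Il1rap had 0 reads in bone marrow library 11, and Il18rap had 3 or fewer reads in 3 untreated libraries.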

How the data were processed

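The authors deposited unnormalized read counts of 55487 genes in 14 libraries, made with STAR and featureCounts on mm10, per the submitters' processing notes. Versions, annotation, strand and multi-mapping settings are not given in the sources used here, so reads shared with antisense genes could not be separated. Libraries were made with SMART-Seq HT and Nextera XT, per the labels' protocols, and hold no molecular identifiers, so limits from 3 counts cover counting error only. The deposited gene length in bases, another column of the table, was used for values per kb.

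No libraries were identical (0 pairs). Low genes were removed by filterByExpr (with the groups, at least 10 counts and 15 in all), and counts were scaled by TMM and fitted as 1 model of 3 groups with edgeR 4.0.16 (robust glmQLFit, glmQLFTest) in R 4.3.3. Each standard error was derived from the log2 difference and its F statistic, and 95% intervals use the fit's degrees of freedom. The dispersion common to all genes was 1.33. P-values were adjusted by Benjamini-Hochberg over 21014 genes. The edgeR procedure was also run on simulated counts, with changes only in the MC903 resident group and only in genes of at least 10 CPM. That run does not cover changes in genes of lower level or in the bone marrow group. Ratios of chains used counts plus 0.5, per kb, in libraries with more than 3 counts of both. Alternatives were size factors as in DESeq2, TMM from genes of at least 10 CPM, no filter, a filter at a mean of 10 CPM, DESeq2 1.42.0, voomWithQualityWeights of limma 3.58.1, a fit without the group not compared, each library omitted and a pseudocount of 2.

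The receptor genes, the 6 pathway lists and the 9 marker lists were chosen with earlier results of these data known. Named were all receptor genes and, per list, up to 4 called genes without overlap of groups by size of change. Genes that a sentence on a role needs could also be named with their values and not as changed, among them Il13, Il6, Il1r1, Il1rl2 and Il2rg. Il1r2, Sigirr, Nfkbia, Nfkbie, Pim1 and Ccl2 fall outside that rule and were named after their values were seen, as were Tnfaip3, Lif and Vegfa against MC903 resident cells and Il17ra against untreated cells. For similarity, the 3 genes with the highest r were named, leaving out predicted and mitochondrial genes. Symbols came from the reference for 55394 of the gene identifiers. Of the identifiers, 55094 had the same version and position in GENCODE M21.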

Additional observations from a re-analysis of the deposited data

Results flagged for a closer look

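Receptor gene levels were checked for a library far from the rest of its group. The check divided the gap to the nearest other library by the range of the group. For normally distributed values chance gives about 1 in 20 groups such a library. That rate was not measured for low, skewed counts such as those of Il17rb and Il18r1. Among 21 groups of levels checked 4 were found, which is not read as an excess. None was found among 8 groups of chain ratios. Il1rap stood at 58.8 CPM in MC903 resident library 10, where the other 4 libraries lay between 13.6 and 20.4 CPM. Il18r1 stood at 8.64 CPM in MC903 resident library 7, against 0 to 2.23 CPM in the others, and at 7.54 CPM in bone marrow library 11, against 0.139 to 1.37 CPM in the others. Il17rb was at 0.1004 CPM in bone marrow library 15, from 2 reads, and at 0 in the other 3.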

How the results depend on the processing

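Over all genes, edgeR called 473 in MC903 resident against untreated cells (DESeq2 1072, voom 1358, 312 to 516 with each library left out), 477 in bone marrow against MC903 resident cells (no filter 748, DESeq2 1720, voom 2017, only these groups 315, each library left out 302 to 704) and 1443 in bone marrow against untreated cells (DESeq2 2757, voom 2194, each library left out 1140 to 1549). The counts fell by over 1.5 times without untreated library 1 (312) or MC903 resident library 6 (314) in the first comparison, and without MC903 resident library 6 (305), 7 (302) or 9 (314) in the second. The split of higher to lower calls moved with the scaling, from 120 to 353 with TMM to 207 to 294 with size factors as in DESeq2 in the first comparison, and from 277 to 200 to 167 to 242 in the second. Size factors as in DESeq2 moved the median of all genes from -0.28 to -0.43 there. Receptor genes called in the first comparison numbered 0 with edgeR, 1 with size factors as in DESeq2, with TMM from genes of at least 10 CPM and with the filter at 10 CPM, 2 with no filter, DESeq2, voom and only these groups, and 0 to 1 with each library left out. In the second they numbered 0, then 1 with each of those scalings and that filter, 2 with no filter and voom, 3 with DESeq2, and 0 to 1 with each library left out. In the third they numbered 1, then 2 with TMM from genes of at least 10 CPM, 4 with DESeq2, 3 with voom, and 1 to 2 with each library left out. Signs reversed for genes that were not called. Il18r1 in MC903 resident against untreated cells turned to 0.17 (size factors as in DESeq2, and DESeq2), 0.24 (TMM from genes of at least 10 CPM), 0.36 (voom) and 0.0008 (only these groups), and ranged from -1.29 to 1.15 with each library left out. In bone marrow cells it turned to 0.0503 with voom against untreated cells, and ranged with each library left out from -2.06 to 0.88 against untreated and from -2.05 to 1.10 against MC903 resident cells. Il17rb in MC903 resident against untreated cells was -0.21 without library 7 and up to 0.94 otherwise, and Il1rl1 in bone marrow against untreated cells ranged from -0.0724 (without library 11) to 0.23. The cause was not tested. The filter at 10 CPM left no value for Il17rb, Il18r1 and Il18rap, nor did a fit of only the groups compared for Il17rb in bone marrow cells, and a pseudocount of 2 moved no mean log2 chain ratio by more than its SD. Standard errors were widest for Il17rb (1.46 to 1.92), Il18r1 (1.54 to 1.64) and Il18rap (1.23 to 1.47). No paired analysis was possible because library numbers run in a single series over the groups and pair nothing.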
